A study of Mus musculus with 12 samples.

Results

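Of the 12 mouse wound samples in the series, 3 were compared here: the single sample labelled as wounded at 0 h, the single sample labelled as wounded at 4 h, and non-wounded replicate 1, which served as the reference for both. They were chosen by their titles, with earlier results of these data known. The other samples were 3 further non-wounded replicates, 2 at 30 min and 4 at 2 h after wounding. All titles carry the prefix B6, and the labels give no age, sex, genotype or wounding method for any group. The labels name dendritic epidermal T cells as the cell type, whereas the design text of the series plans RNA from whole epidermis, with keratinocytes as the main cells. The labels also do not say whether replicates are separate mice, and with 1 sample a group each difference has no replicate check. The values are therefore given as descriptions, without a test.

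The epidermis is a sheet of keratinocytes that holds Langerhans cells, which sample antigen, and, in mice, dendritic epidermal T cells, a resident gamma delta T cell population. After wounding, keratinocytes at the edge release chemokines, cytokines of the interleukin 1 family and ligands of the epidermal growth factor receptor, and they begin to migrate. Hyaluronan and the sulfated sugar chains of proteoglycans form much of the matrix around them and bind many of those ligands.

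Each sample was measured on 1 microarray as 1246 log2 values, of which 963 could be named, for 909 genes. A difference of 1 on this scale is a 2-fold difference, and this size was used as the limit for naming a probe set as higher or lower. Because the columns differed in spread, every difference is given as deposited and after each column was brought to the median and SD of non-wounded replicate 1 (the scaled difference). The SD over probe sets was 1.81 in non-wounded replicate 1, 1.85 at 0 h and 1.55 at 4 h, against 2.19 to 2.30 in the 7 samples numbered 2 to 4. The 5 samples numbered 1, 1 of each group, thus stood apart from the rest, and the 0 h and 4 h samples have no counterpart among the others. Non-wounded replicate 1 correlated across probe sets at 0.981 with the 0 h sample and at 0.928 with the 4 h sample.

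As a scale for what follows, pairs of replicates numbered 2 to 4 within the non-wounded or the 2 h group had 7 to 50 of 1246 probe sets that differed by 1 or more, and 1 to 23 after scaling. The 0 h sample and non-wounded replicate 1 had 11 such probe sets (0.883%), within that range. The 4 h sample and non-wounded replicate 1 had 147 (11.8%), above that range, also after scaling with 147. However, the 30 min and 2 h samples numbered 1 differed from the same non-wounded sample at 190 (15.2%) and 132 (10.6%) probe sets, so a count of this size was not particular to 4 h.

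**Figure D1:**
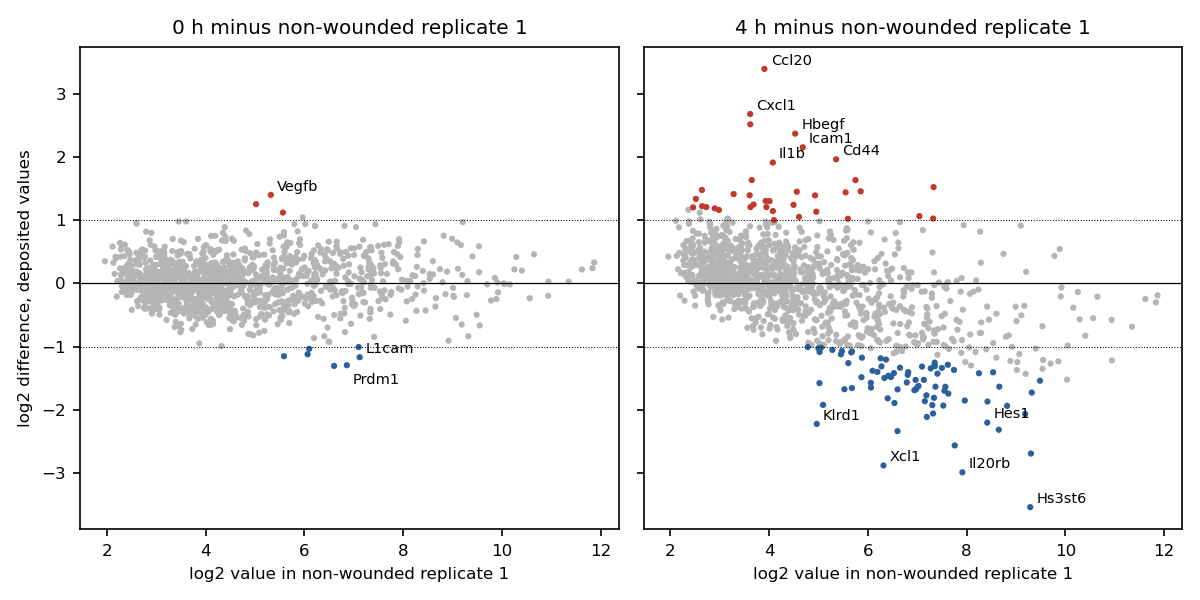
Each point is 1 of 1246 probe sets, with its log2 value in non-wounded replicate 1 on the x axis and its log2 difference at 0 h (left) or 4 h (right) on the y axis, as deposited; dotted lines mark 1 and -1, and coloured points passed 1 in the same direction on both scales. At 0 h 3 coloured points lie above and 7 below, and at 4 h 36 lie above, at a median level of 4.04, and 78 below, at a median level of 6.97.

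Promoters of the chemokines Cxcl1 and Cxcl2 and of the cytokine Il1b are shown, because these inflammatory genes were higher at 4 h than in the reference and their windows hold a motif that was searched for. Windows of RefSeq, assembly GRCm38.p6, were matched by symbol and were present for 14 of the 24 genes higher at 4 h and for 708 of the 909 genes. Each line gives the 250 bases before the annotated start, 5′ to 3′ along the strand of the gene. Cxcl1 lies on the plus strand at chr5:90890995-90891244, Cxcl2 on the plus strand at chr5:90903649-90903898 and Il1b on the minus strand at chr2:129371140-129371389. Capitals mark a form of the NF-kappaB site in Cxcl1 and Cxcl2 and the TATA box in Il1b.
Cxcl1: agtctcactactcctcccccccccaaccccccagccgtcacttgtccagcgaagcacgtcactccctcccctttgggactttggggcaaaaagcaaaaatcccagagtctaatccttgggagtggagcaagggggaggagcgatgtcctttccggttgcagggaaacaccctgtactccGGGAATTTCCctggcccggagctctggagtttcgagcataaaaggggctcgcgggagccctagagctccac
Cxcl2: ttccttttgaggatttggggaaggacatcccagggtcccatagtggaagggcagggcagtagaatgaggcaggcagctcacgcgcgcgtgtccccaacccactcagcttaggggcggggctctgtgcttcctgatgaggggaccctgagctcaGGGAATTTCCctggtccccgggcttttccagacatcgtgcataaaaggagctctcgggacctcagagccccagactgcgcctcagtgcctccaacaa
Il1b: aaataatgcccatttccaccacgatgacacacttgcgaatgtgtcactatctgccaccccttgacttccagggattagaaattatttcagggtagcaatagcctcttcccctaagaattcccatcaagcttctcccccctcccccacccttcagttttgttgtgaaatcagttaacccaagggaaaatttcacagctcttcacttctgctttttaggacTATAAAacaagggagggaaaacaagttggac

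The same run of letters, GGGAATTTCC, lay at bases -71 to -62 of the Cxcl1 window and at -97 to -88 of the Cxcl2 window, counted from the start. The searched form GGGANTTTCC, on either strand, was in 2 of the 14 windows of genes higher at 4 h (14.3%), in 0 of 44 windows of genes lower at 4 h, in 7 of 708 windows of the table's genes (0.989%) and in 117 of all 32851 windows (0.356%). The sets of genes were given 1 window a gene, whereas the share over all windows counts every window, 32851 for 27025 genes. The 2 windows with the searched form are of Cxcl1 and Cxcl2, related genes close together on the same chromosome, and may not be separate cases. The AP-1 form TGANTCA was in 2 of the 14 windows, those of Havcr2 and Msmo1, and in 6.75% of all windows. The TATA box TATAAA was in 2 of the 14, those of Hs6st2 and Il1b, and in 12.4% of all windows. The CRE TGACGTCA was in 0 of the 14 and in 1.55% of all. Matches of 1 motif were counted whether or not another overlapped them, and they describe letters, not binding.

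At 0 h few probe sets stood away from the reference. On both scales 3 probe sets were higher by 1 or more (0.241% of 1246) and 7 were lower (0.562%), of which 5 had a gene name. The named genes that were higher were the growth factor Vegfb, the chemokine Ccl21a and Uap1l1, a relative of an enzyme of amino sugar activation. Those that were lower were the transcriptional repressor Prdm1, the adhesion molecule L1cam, the cytokine Il1a, the first enzyme subunit of glycolipid anchor synthesis Piga, and the late endosome GTPase Rab7.

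Ccl21a, a lymphoid chemokine that attracts cells with the receptor Ccr7, measured 5.02, 4.65, 4.30 and 3.80 in non-wounded replicates 1 to 4 and 6.28 at 0 h, a difference of 1.25 (scaled 1.22). Its values were 6.34 and 5.17 at 30 min, 5.82, 5.40, 5.49 and 4.90 at 2 h and 6.01 at 4 h. Among the samples numbered 2 to 4, all of the wounded samples lay above all of the non-wounded ones, and among those numbered 1 all 4 wounded samples lay above the reference. Near-identical copies of Ccl21a exist in the mouse genome, so the probe set may not measure this copy alone.

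Vegfb, a ligand of the receptor Flt1, measured 5.32, 5.84, 6.12 and 6.16 in the non-wounded replicates and 6.72 at 0 h, which was 1.40 above the reference (scaled 1.35). No later sample reached that value, with 5.18 and 5.73 at 30 min, 5.004, 5.98, 6.08 and 6.15 at 2 h and 5.04 at 4 h. For Uap1l1 the 0 h value of 6.69 exceeded the reference of 5.57 by 1.12 (scaled 1.07) but lay inside the non-wounded range, whose other values were 7.08, 6.38 and 6.54. It was 5.34 and 6.17 at 30 min, 5.90, 5.97, 6.02 and 6.49 at 2 h and 5.50 at 4 h.

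Prdm1 measured 6.86, 8.14, 8.18 and 7.62 in the non-wounded replicates and 5.56 at 0 h, a difference of -1.29 (scaled -1.31). In the later samples it measured 6.31 and 8.05 at 30 min, 4.30, 7.63, 7.27 and 7.53 at 2 h and 6.04 at 4 h. The low values were those of the wounded samples numbered 1, while the wounded samples numbered 2 to 4 stayed above 7.

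Il1a, the interleukin 1 form that keratinocytes store and release on damage, measured 5.59, 5.87, 6.04 and 5.80 without a wound and 4.43 at 0 h, a difference of -1.15 on both scales. Its later values were 4.77 and 5.48 at 30 min, 5.01, 5.43, 5.90 and 5.30 at 2 h and 4.61 at 4 h. The 0 h value was the lowest of the 12 samples, and the 4 h value was the next lowest.

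For L1cam the non-wounded values were 7.12, 8.21, 7.93 and 7.61, and the 0 h value of 5.95 gave a difference of -1.17 (scaled -1.20). It was 5.90 and 7.18 at 30 min, 5.93, 7.39, 7.67 and 8.003 at 2 h and 6.23 at 4 h, again low in each wounded sample numbered 1. The same samples were low for Piga, with 6.07, 7.62, 7.64 and 7.45 without a wound, 4.94 at 0 h (difference -1.12, scaled -1.13), 5.53 and 7.32 at 30 min, 5.17, 7.71, 7.38 and 7.95 at 2 h and 4.42 at 4 h.

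Rab7 measured 7.10, 5.95, 7.08 and 8.18 without a wound and 6.09 at 0 h, a difference of -1.01 (scaled -1.04). Its later values were 4.73 and 7.39 at 30 min, 5.20, 6.65, 7.24 and 5.998 at 2 h and 5.78 at 4 h. The 0 h value lay inside the non-wounded range, which for this gene was wide.

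Just outside the limit at 0 h were Bmp3, a bone morphogenetic protein, at 0.98, the growth factor Pdgfa at 0.94, the Wnt receptor Fzd1 at 0.91, the mucin-type glycosyltransferase Galnt12 at -0.99, the lectin receptor Clec4d at -0.95 and the interleukin 36 gene Il1f9 at -0.92. Alg1, an early enzyme of N-glycan assembly, passed as deposited with 1.04 and missed after scaling with 0.99. The genes that were highest at 4 h were near the reference here: Ccl20 differed by -0.41 at 0 h, Cxcl1 by -0.28, Hbegf by -0.48, Il1b by -0.25 and Icam1 by 0.29.

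At 4 h, 36 probe sets were higher than the reference by 1 or more on both scales (2.89% of 1246) and 78 were lower (6.26%). Counted with 1 probe set a gene, 24 of 909 genes were higher (2.64%) and 60 were lower (6.60%). The higher genes were led by chemokines, a growth factor of the epidermal growth factor family, an adhesion molecule, Il1b and genes of hyaluronan. The lower genes were led by a heparan sulfate enzyme, a receptor subunit for the interleukin 20 family, lymphocyte genes, Notch genes and enzymes of sugars and sphingolipids. Of the 36 higher probe sets 27 lay outside the range of all 4 non-wounded samples on both scales, as did 71 of the 78 lower ones; over all probe sets 28.7% lay above that range at 4 h and 22.9% below it, and at 0 h 17.6% and 12.4%.

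**Figure D2:**
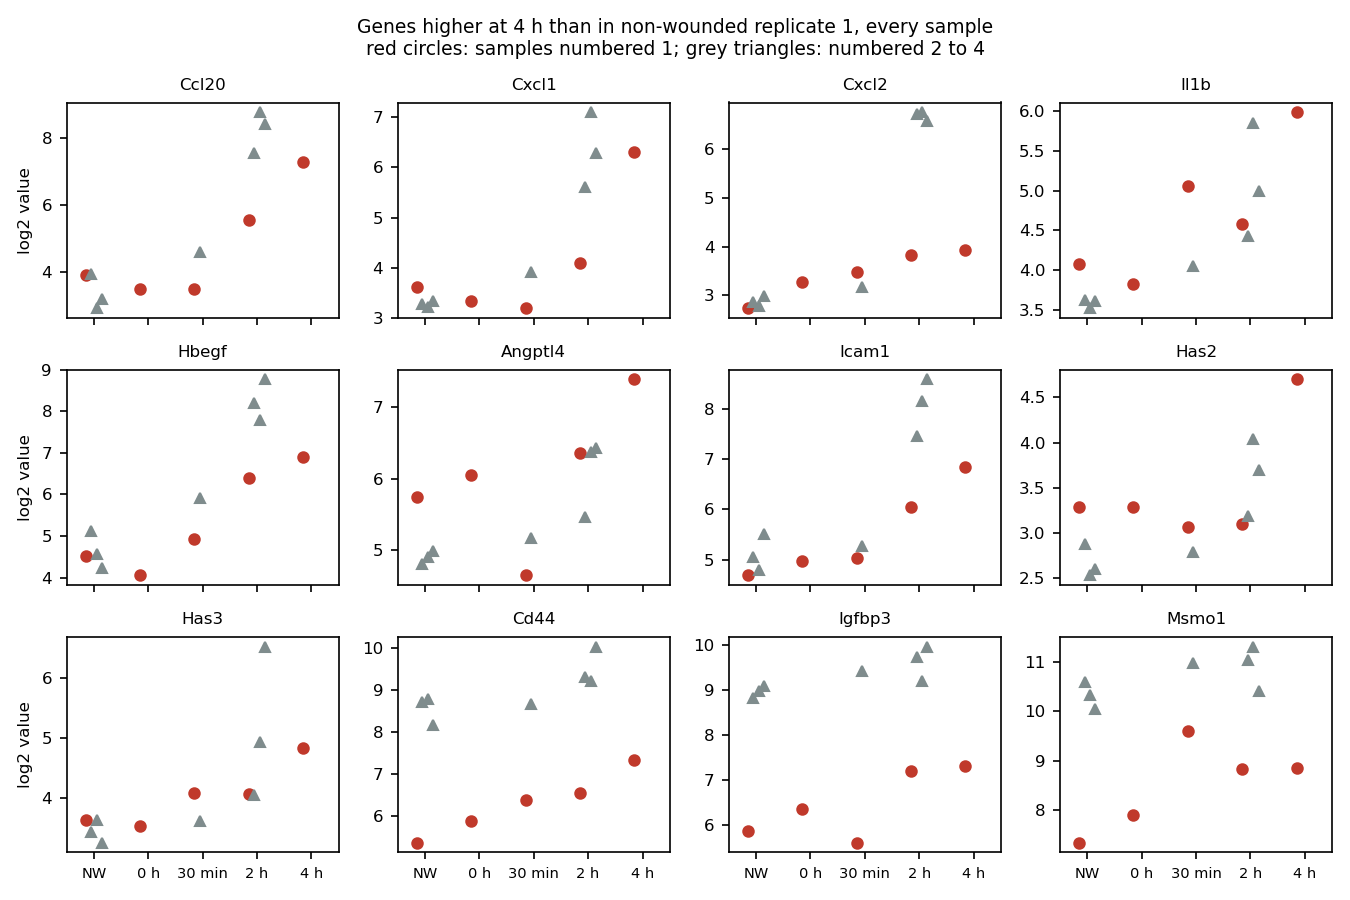
Deposited log2 values of 12 genes higher at 4 h than in the reference are plotted for every sample, by time after wounding (NW, non-wounded), with red circles for samples numbered 1 and grey triangles for those numbered 2 to 4. Ccl20, Cxcl1, Hbegf and Icam1 are above all non-wounded samples at 2 h and 4 h, with the 2 h sample numbered 1 below the 4 h sample. In Cd44, Igfbp3 and Msmo1 the 4 h sample is above the non-wounded sample numbered 1 and below the other 3.

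Ccl20, the ligand of Ccr6 and an attractant of lymphocytes and dendritic cells, was the highest of all. Its values were 3.91, 3.95, 2.91 and 3.19 without a wound, 3.50 at 0 h, 3.48 and 4.61 at 30 min, 5.56, 7.55, 8.78 and 8.44 at 2 h and 7.30 at 4 h. The 4 h value exceeded the reference by 3.39, or 10.5-fold (scaled difference 3.83). Every 2 h and 4 h sample lay above every non-wounded sample, and the 4 h sample lay above the 2 h sample numbered 1 and below the 2 h samples numbered 2 to 4.

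Cxcl1, which draws neutrophils through Cxcr2, measured 3.62, 3.28, 3.23 and 3.35 without a wound, 3.34 at 0 h, 3.19 and 3.92 at 30 min, 4.09, 5.60, 7.10 and 6.28 at 2 h and 6.30 at 4 h. Its 4 h difference was 2.68, or 6.41-fold (scaled 2.95). Cxcl2, its neighbour in sequence and function, measured 2.73, 2.87, 2.78 and 2.99 without a wound, 3.27 at 0 h, 3.47 and 3.18 at 30 min, 3.83, 6.72, 6.76 and 6.58 at 2 h and 3.94 at 4 h. Here the 4 h difference was only 1.21 (scaled 1.10), and the samples numbered 1 at 2 h and 4 h lay close together, far below the 2 h samples numbered 2 to 4.

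Il1b, the secreted interleukin 1 of inflammation, measured 4.08, 3.62, 3.52 and 3.60 without a wound, 3.83 at 0 h, 5.06 and 4.05 at 30 min, 4.58, 4.43, 5.86 and 4.99 at 2 h and 5.99 at 4 h. The difference at 4 h was 1.91, or 3.76-fold (scaled 2.13), and 5.99 was the highest value among the 12 samples. Unlike Il1b, Il1a differed by -0.98 at 4 h on both scales, just under the limit in size.

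Hbegf, a ligand of the epidermal growth factor receptor made by migrating keratinocytes, measured 4.53, 5.13, 4.56 and 4.22 without a wound, 4.05 at 0 h, 4.93 and 5.91 at 30 min, 6.39, 8.20, 7.80 and 8.77 at 2 h and 6.90 at 4 h. Its difference at 4 h was 2.37, or 5.17-fold (scaled 2.74). Of the 6 measured ligands and receptors of that family it alone passed the limit at 4 h. Among all genes 2.64% were higher and 6.60% lower. Areg, another ligand, differed by 0.65 (scaled 0.47), Btc by -0.81 (scaled -0.83) and the receptor Egfr by 0.30 (scaled 0.51). Another probe set of Egfr gave -0.11 (scaled -0.15).

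Angptl4, a secreted inhibitor of lipoprotein lipase, measured 5.75, 4.81, 4.91 and 4.997 without a wound, 6.05 at 0 h, 4.65 and 5.17 at 30 min, 6.36, 5.47, 6.37 and 6.43 at 2 h and 7.38 at 4 h, a difference of 1.63 (scaled 2.08). The 4 h sample was the highest of the series.

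Icam1, the endothelial and keratinocyte ligand of the leukocyte integrin LFA-1, measured 4.68, 5.06, 4.79 and 5.50 without a wound, 4.97 at 0 h, 5.02 and 5.27 at 30 min, 6.05, 7.47, 8.16 and 8.59 at 2 h and 6.84 at 4 h. The 4 h difference was 2.15, or 4.45-fold (scaled 2.51), and no sample at 2 h or 4 h overlapped the non-wounded or 30 min samples. Of 12 measured adhesion molecules it was the only one past the limit, beside 2.64% higher and 6.60% lower among all genes.

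Genes of hyaluronan gave the highest median of the lists described at 4 h, 0.87 as deposited and 0.90 after scaling, beside -0.03 and -0.07 over all 909 genes. Of 6 measured, Has2, Has3 and Cd44 were higher on both scales and none was lower, beside 2.64% higher and 6.60% lower among all genes. Has2, a hyaluronan synthase, measured 3.28, 2.88, 2.53 and 2.61 without a wound, 3.29 at 0 h, 3.07 and 2.79 at 30 min, 3.10, 3.18, 4.04 and 3.69 at 2 h and 4.70 at 4 h, a difference of 1.41 (scaled 1.43).

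Has3, another synthase, measured 3.62, 3.44, 3.64 and 3.26 without a wound, 3.53 at 0 h, 4.08 and 3.61 at 30 min, 4.06, 4.04, 4.94 and 6.52 at 2 h and 4.83 at 4 h, a difference of 1.21 (scaled 1.24). At 4 h both synthases lay above all 4 non-wounded samples. The synthase Has1 and the hyaluronidases Hyal1 and Hyal2 were under the limit, with differences of -0.29, 0.52 and -0.16.

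Cd44, the main hyaluronan receptor, measured 5.36, 8.71, 8.79 and 8.16 without a wound, 5.88 at 0 h, 6.37 and 8.67 at 30 min, 6.54, 9.30, 9.21 and 10.04 at 2 h and 7.32 at 4 h. Against the reference the 4 h difference was 1.96 (scaled 2.40), but the 4 h value lay inside the non-wounded range, below the non-wounded samples numbered 2 to 4. Against the mean of the 4 non-wounded samples the deposited difference was -0.44. Against the scaled mean of the 4 it was 0.52, and with non-wounded replicate 1 left out of that mean it was -0.11. The direction for Cd44 therefore depended on the scale and on which non-wounded samples were taken as the reference.

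Among these were Igfbp3, a carrier of insulin-like growth factors, and Msmo1, an oxidase of cholesterol synthesis. Igfbp3 measured 5.85, 8.82, 8.99 and 9.08 without a wound, 6.35 at 0 h, 5.60 and 9.42 at 30 min, 7.20, 9.73, 9.19 and 9.97 at 2 h and 7.31 at 4 h, a difference of 1.46 (scaled 1.89) against the reference. Msmo1 measured 7.33, 10.59, 10.34 and 10.05 without a wound, 7.90 at 0 h, 9.60 and 10.98 at 30 min, 8.82, 11.04, 11.32 and 10.41 at 2 h and 8.86 at 4 h, a difference of 1.52 (scaled 2.21). In both genes every sample numbered 1 lay below every non-wounded sample numbered 2 to 4. The glucuronosyltransferase Ugt1a6b (1.45), Bmp3 (1.39), the chromatin protein Hmgn2 (1.06), the proteoglycan Sdc4 (1.03) and the sialic acid activating enzyme Cmas (1.02) were likewise higher than the reference and inside the non-wounded range.

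A further group was higher at 4 h with little difference in the 2 h samples numbered 2 to 4. Hs6st2, a 6-O-sulfotransferase of heparan sulfate, measured 2.64, 2.60, 2.59 and 2.56 without a wound, 2.54 at 0 h, 2.87 and 2.63 at 30 min, 2.97, 2.57, 2.59 and 2.72 at 2 h and 4.12 at 4 h, a difference of 1.48 (scaled 1.40). B4galt2, a galactosyltransferase of N-glycans, measured 5.55, 5.02, 4.80 and 4.56 without a wound, 5.96 at 0 h, 6.55 and 4.86 at 30 min, 6.15, 4.94, 4.98 and 4.98 at 2 h and 6.99 at 4 h, a difference of 1.44 (scaled 1.82). For B4galt2 the samples numbered 1 at 30 min and 2 h were high as well, and those numbered 2 to 4 were not. The C-type lectin Clec1a differed by 1.34 at 4 h and by -0.01 in the 2 h samples numbered 2 to 4, and Il27ra, a cytokine receptor subunit, by 1.25 and 0.10. Hs6st2 and Clec1a had low values, with Clec1a at 2.52 in the reference and 3.86 at 4 h. Hs6st2 lies in the lowest of 4 equal parts of the probe sets by mean level. In that part the median difference at 4 h was 0.19 (scaled -0.06).

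**Figure D3:**
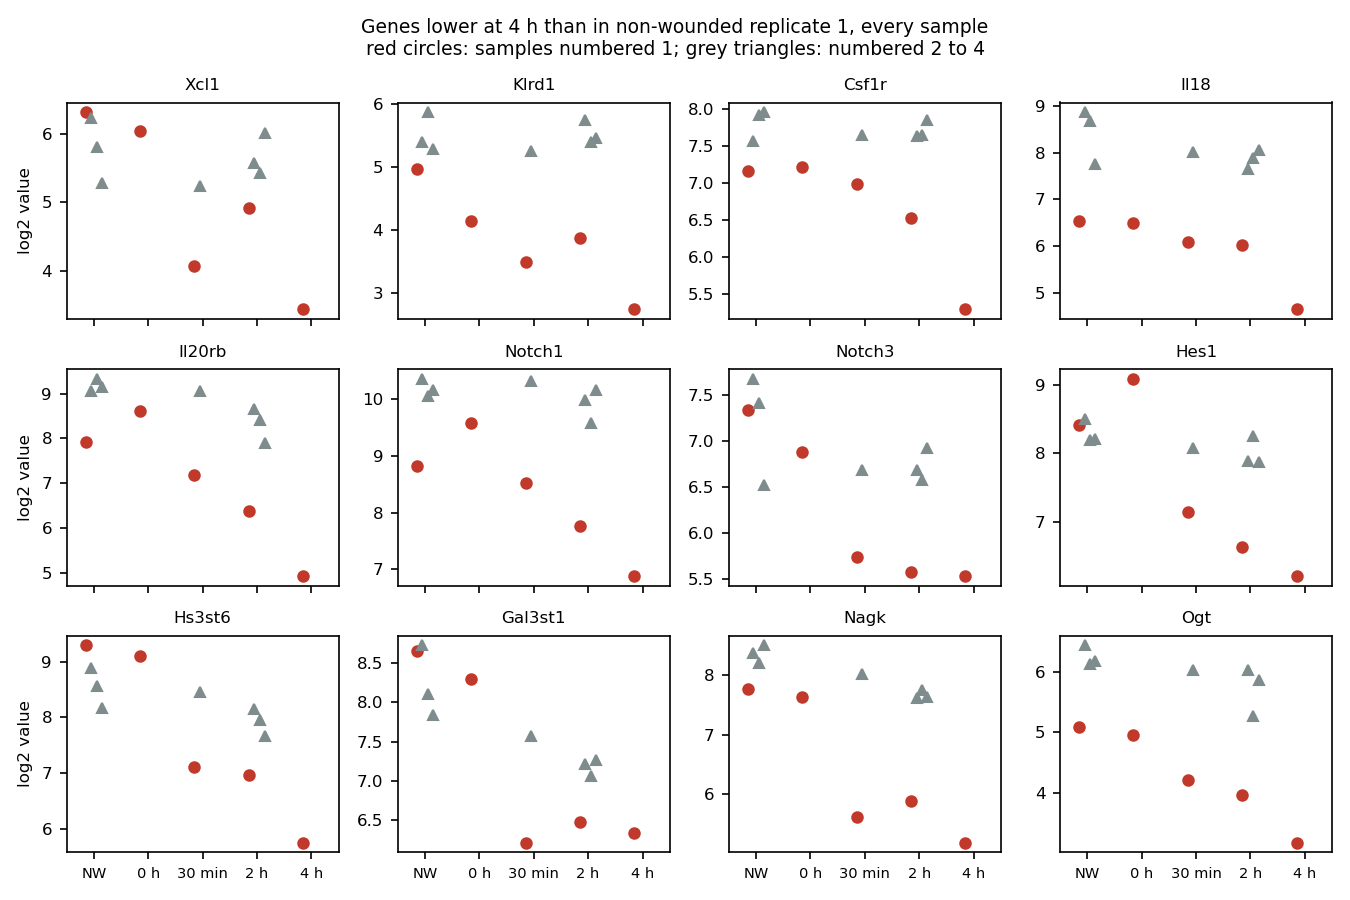
Deposited log2 values of 12 genes lower at 4 h than in the reference are plotted for every sample, by time after wounding (NW, non-wounded), with red circles for samples numbered 1 and grey triangles for those numbered 2 to 4. In each panel except that of Gal3st1 the 4 h sample is the lowest of the 12, and in most panels the red circles at 30 min and 2 h also lie below the grey triangles.

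Among the lower genes, Xcl1 and Klrd1 are lymphocyte genes. Xcl1, a chemokine of T and natural killer cells, measured 6.32, 6.24, 5.81 and 5.28 without a wound, 6.04 at 0 h, 4.07 and 5.24 at 30 min, 4.92, 5.58, 5.42 and 6.02 at 2 h and 3.44 at 4 h. The difference of -2.88 (scaled -3.07) was a 7.37-fold lower value. Klrd1, the CD94 subunit of natural killer receptors, measured 4.97, 5.41, 5.87 and 5.29 without a wound, 4.14 at 0 h, 3.50 and 5.26 at 30 min, 3.88, 5.75, 5.40 and 5.46 at 2 h and 2.74 at 4 h, a difference of -2.22 (scaled -2.53). In the samples numbered 2 to 4 these genes differed by -0.10 and 0.01 between 2 h and non-wounded, so the low values were in the samples numbered 1.

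The other 7 measured T cell markers did not pass the limit at 4 h. Il7r, the interleukin 7 receptor, differed by 0.88 (scaled 0.89), Ifng by 0.70 (scaled 0.50), Cd2 by 0.41 (scaled 0.46), Il2rb by 0.37 (scaled 0.48), Klrg1 by 0.13 (scaled -0.04), Klrk1 by -0.06 (scaled -0.40) and Itgae, the integrin of epidermal T cells, by -0.76 (scaled -0.78). The mean level of the 9 markers was 4.27 in the reference, 4.18 at 0 h and 3.89 at 4 h, against 4.14 to 4.39 in the non-wounded samples numbered 2 to 4. The T cell receptor genes were not analysed here. In bulk samples fewer cells of a type and less RNA per cell cannot be told apart.

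Csf1r, the receptor that Langerhans cells need for their upkeep, measured 7.15, 7.56, 7.92 and 7.95 without a wound, 7.22 at 0 h, 6.98 and 7.65 at 30 min, 6.52, 7.64, 7.65 and 7.84 at 2 h and 5.29 at 4 h, a difference of -1.86 (scaled -1.76). Cd207, the langerin gene that defines these cells, was not low, with 7.11, 7.57, 8.41 and 8.35 without a wound, 7.69 at 0 h, 6.57 and 7.99 at 30 min, 7.71, 8.85, 9.32 and 9.22 at 2 h and 7.96 at 4 h. Its difference was 0.84 as deposited and 1.38 scaled, so it passed the limit on 1 scale. Of the 9 markers of Langerhans and dendritic cells only Csf1r passed on both, and their mean level was 5.48 in the reference, 5.52 at 0 h and 5.37 at 4 h.

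Il20rb, a receptor subunit through which keratinocytes sense cytokines of the interleukin 20 group, measured 7.92, 9.06, 9.33 and 9.15 without a wound, 8.62 at 0 h, 7.17 and 9.06 at 30 min, 6.38, 8.66, 8.41 and 7.90 at 2 h and 4.93 at 4 h. The difference was -2.99 (scaled -2.94), a 7.94-fold lower value. Its partner Il20ra was lower by a difference of -1.69 (scaled -1.59). In the samples numbered 2 to 4 the 2 h mean was also below the non-wounded mean, with differences of -0.86 for Il20rb and -0.75 for Il20ra.

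Il18, an interleukin 1 family cytokine that keratinocytes hold as a precursor, measured 6.54, 8.86, 8.68 and 7.76 without a wound, 6.50 at 0 h, 6.09 and 8.01 at 30 min, 6.02, 7.64, 7.88 and 8.06 at 2 h and 4.65 at 4 h, a difference of -1.89 on both scales. Of 16 measured genes of the family Il1b was higher on both scales and Il18 and Il1f6, an interleukin 36 gene (-1.40, scaled -1.37), were lower, beside 2.64% higher and 6.60% lower among all 909 genes. The median of the family was -0.28 (scaled -0.31) at 4 h and -0.23 (scaled -0.24) at 0 h, where Il1a alone was lower. The receptor antagonist Il1rn differed by -0.84 (scaled -0.78) at 4 h.

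Of 16 measured genes of the Notch pathway, which sets keratinocyte differentiation, 3 were lower at 4 h on both scales, beside 6.60% of all genes, and none was higher. All 3 lie in the highest of 4 equal parts of the probe sets by mean level, where 55 of 312 were lower. Notch1, a receptor, measured 8.82, 10.36, 10.05 and 10.16 without a wound, 9.57 at 0 h, 8.52 and 10.32 at 30 min, 7.76, 9.99, 9.59 and 10.17 at 2 h and 6.88 at 4 h, a difference of -1.94 (scaled -1.57). Hes1, a target of the pathway, measured 8.42, 8.50, 8.19 and 8.21 without a wound, 9.08 at 0 h, 7.15 and 8.07 at 30 min, 6.63, 7.90, 8.26 and 7.87 at 2 h and 6.21 at 4 h, a difference of -2.20 (scaled -1.95). At 0 h these genes had been above the reference by 0.76 and 0.67, under the limit.

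Notch3, another receptor, measured 7.34, 7.68, 7.42 and 6.52 without a wound, 6.88 at 0 h, 5.74 and 6.69 at 30 min, 5.57, 6.68, 6.57 and 6.92 at 2 h and 5.53 at 4 h, a difference of -1.81 (scaled -1.66). The ligand Jag2 passed as deposited with -1.23 and not after scaling with -0.74. The other ligands did not pass, with Dll1 at 0.70 and Jag1 at 0.37. The median of the pathway was -0.25 (scaled -0.20).

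The lowest gene of all at 4 h relative to the reference was Hs3st6, a 3-O-sulfotransferase of heparan sulfate. It measured 9.29, 8.89, 8.57 and 8.17 without a wound, 9.10 at 0 h, 7.10 and 8.45 at 30 min, 6.97, 8.15, 7.94 and 7.66 at 2 h and 5.75 at 4 h, a difference of -3.54 (scaled -3.36), or an 11.6-fold lower value. The samples numbered 1 at 30 min and 2 h were also low, and in the samples numbered 2 to 4 the 2 h mean differed by -0.62 from the non-wounded mean. Of 29 measured heparan sulfate enzymes, Hs3st6, the epimerase Glce (-1.26) and the xylosyltransferase Xylt2 (-1.18) were lower on both scales and Hs6st2 was higher, counts not far from the 6.60% and 2.64% of all genes.

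The proteoglycan Sdc2, which carries such chains, measured 5.02, 5.37, 5.56 and 5.89 without a wound, 4.87 at 0 h, 4.36 and 5.24 at 30 min, 4.94, 5.13, 5.15 and 5.16 at 2 h and 3.44 at 4 h, a difference of -1.58 (scaled -1.77). Sdc1, the main keratinocyte syndecan, differed by -1.04 as deposited and by -0.60 scaled.

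Of 23 measured enzymes of glycosphingolipids, lipids of the epidermal barrier and of cell membranes, 5 were lower at 4 h on both scales, beside 6.60% of all genes, and none was higher. The median over the list was -0.17 (scaled -0.15). Gal3st1, which makes sulfatide, measured 8.65, 8.72, 8.10 and 7.84 without a wound, 8.29 at 0 h, 6.22 and 7.57 at 30 min, 6.48, 7.22, 7.06 and 7.27 at 2 h and 6.34 at 4 h, a difference of -2.32 (scaled -2.04). Arsa, which degrades sulfatide, measured 6.40, 7.73, 7.47 and 7.52 without a wound, 5.57 at 0 h, 4.22 and 6.86 at 30 min, 5.82, 6.59, 6.72 and 6.45 at 2 h and 4.58 at 4 h, a difference of -1.82 (scaled -1.83). Both enzymes were also lower at 2 h in the samples numbered 2 to 4, with differences of -1.04 and -0.99.

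Gm2a, the activator of GM2 breakdown, measured 8.42, 8.39, 8.57 and 8.06 without a wound, 8.31 at 0 h, 7.04 and 8.16 at 30 min, 7.47, 8.23, 8.14 and 8.55 at 2 h and 6.55 at 4 h, a difference of -1.87 (scaled -1.56). The ganglioside synthase B4galnt1 was also among the 5, with -1.21 (scaled -1.12). Arsa and Gm2a also belong to the 21 measured lysosomal glycosidases and sulfatases, of which 3 were lower, beside 6.60% of all genes. The median of that list was -0.57 (scaled -0.40), beside -0.03 (scaled -0.07) over all genes.

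Of 28 measured genes of nucleotide sugar and hexosamine synthesis, Nagk, Ogt and the phosphomannomutase Pmm1 were lower on both scales, beside 6.60% of all genes. Pmm1 lay inside the non-wounded range after scaling. None was higher on both scales, and the median of the list was -0.08 (scaled 0.04). Uap1 (0.84, scaled 1.12), Ugdh (0.85, scaled 1.14) and Slc35d1 (0.97, scaled 1.05) were higher by 1 or more after scaling only. Nagk, the kinase that recycles N-acetylglucosamine, measured 7.76, 8.37, 8.20 and 8.49 without a wound, 7.62 at 0 h, 5.63 and 8.01 at 30 min, 5.88, 7.61, 7.75 and 7.63 at 2 h and 5.20 at 4 h, a difference of -2.56 (scaled -2.47). Ogt, which attaches N-acetylglucosamine to nuclear and cytosolic proteins, measured 5.09, 6.44, 6.14 and 6.18 without a wound, 4.95 at 0 h, 4.22 and 6.04 at 30 min, 3.96, 6.04, 5.27 and 5.86 at 2 h and 3.17 at 4 h, a difference of -1.92 (scaled -2.16). In both, each wounded sample numbered 1 lay below the reference, and most clearly from 30 min on.

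Further lower genes were spread over other functions. Abhd17a, a protein depalmitoylase, measured 9.30, 9.19, 9.36 and 9.19 without a wound, 9.34 at 0 h, 6.39 and 8.93 at 30 min, 6.85, 8.72, 8.82 and 8.61 at 2 h and 6.61 at 4 h, a difference of -2.69 (scaled -2.37). Fut2, a fucosyltransferase of blood group antigens, measured 7.31, 8.06, 8.35 and 8.07 without a wound, 7.57 at 0 h, 7.05 and 7.88 at 30 min, 5.66, 7.78, 7.83 and 7.18 at 2 h and 5.38 at 4 h, a difference of -1.93 (scaled -1.80); its second probe set gave -1.57 (scaled -1.47). Both were near the reference at 0 h and low from 30 min (Abhd17a) or 2 h (Fut2) in the samples numbered 1.

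Bmp4, a bone morphogenetic protein, measured 6.06, 6.43, 6.62 and 7.04 without a wound, 6.06 at 0 h, 5.82 and 6.58 at 30 min, 5.89, 6.44, 6.80 and 7.13 at 2 h and 4.49 at 4 h, a difference of -1.57 (scaled -1.59). Here the 0 h, 30 min and 2 h samples numbered 1 differed from the reference by -0.01, -0.24 and -0.17, and the 4 h sample alone was low. The Golgi tethering subunit Cog6 differed by -2.11, the Wnt ligand Wnt3a by -1.48, the Wnt receptor Fzd10 by -1.40 and the galectin Lgals1 by -1.31, and the last lay inside the non-wounded range after scaling. Another probe set of Fzd10 differed by -0.69 (scaled -0.55), under the limit.

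Genes of wound responses that did not pass the limit on both scales at 4 h included Il6 (0.25, scaled 0.00), Vegfa (0.45, scaled 0.27), Csf2 (0.20, scaled -0.06) and the early response gene Junb (0.17, scaled 0.64). Vegfa had measured 3.73, 4.56, 4.54 and 4.91 at 2 h against 3.05 to 3.35 without a wound and was 3.50 at 4 h. Junb had measured 8.76, 9.69, 9.28 and 10.07 at 2 h against 7.34 to 8.26 without a wound and was 7.51 at 4 h. Both thus lay nearer the non-wounded samples at 4 h than in any sample at 2 h.

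Of 8 measured keratinocyte markers 1 was above the reference at 4 h as deposited and 3 after scaling. The 1 above as deposited was Egfr, whose other probe set lay below the reference. Lgals7, the galectin of stratified epithelia, measured 11.83, 12.27, 12.36 and 11.86 without a wound, 12.07 at 0 h, 11.00 and 12.08 at 30 min, 11.26, 12.28, 12.27 and 12.29 at 2 h and 11.53 at 4 h, a difference of -0.30 as deposited and 0.82 scaled. Lgals3 likewise gave -0.14 and 0.75, and the skin chemokine Ccl27a gave -0.58 and 0.35. Other probe sets of Ccl27a gave -1.23 (scaled -0.59), without a change of sign, and -0.13 (scaled 0.25). The mean level of the 8 measured keratinocyte markers was 8.38 in the reference, 8.69 at 0 h and 7.52 at 4 h, against 9.25 to 9.48 in the non-wounded samples numbered 2 to 4. The median difference at 4 h was -0.73 (scaled -0.36), and only Il20rb passed the limit on both scales. The part of this shift in the lower genes above was not tested.

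No marker list of cells from outside the epidermis had more than 1 member past the limit. None of 8 measured neutrophil markers passed the limit at 4 h, with a mean level of 3.83 in the reference and 4.01 at 4 h, although the receptor Csf3r differed by 0.91 (scaled 0.81); the defining genes S100a8 and S100a9 were not analysed here. None of 7 dermal fibroblast markers passed, with a mean level of 4.05 in the reference and 4.31 at 4 h, and none of 6 endothelial markers, with 3.59 and 3.75. In the non-wounded samples numbered 2 to 4 these means were 3.64 to 3.78 for fibroblast and 3.20 to 3.36 for endothelial markers. The 4 h sample thus lay above all 4 non-wounded samples in both, and its neutrophil mean lay above their 3.78 to 3.86. These means are of deposited values, and the columns differ in spread. Median differences at 4 h were 0.19 (scaled 0.18) for fibroblast, 0.17 (scaled 0.08) for endothelial and 0.12 (scaled -0.02) for neutrophil markers. The part of such cells in the differences at 4 h was not tested. Among 9 monocyte and macrophage markers only Csf1r, which Langerhans cells share, was past the limit, and the mean level was 3.87 and 3.72. These arrays give no detection call, so no marker can be called absent.

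**Figure D4:**
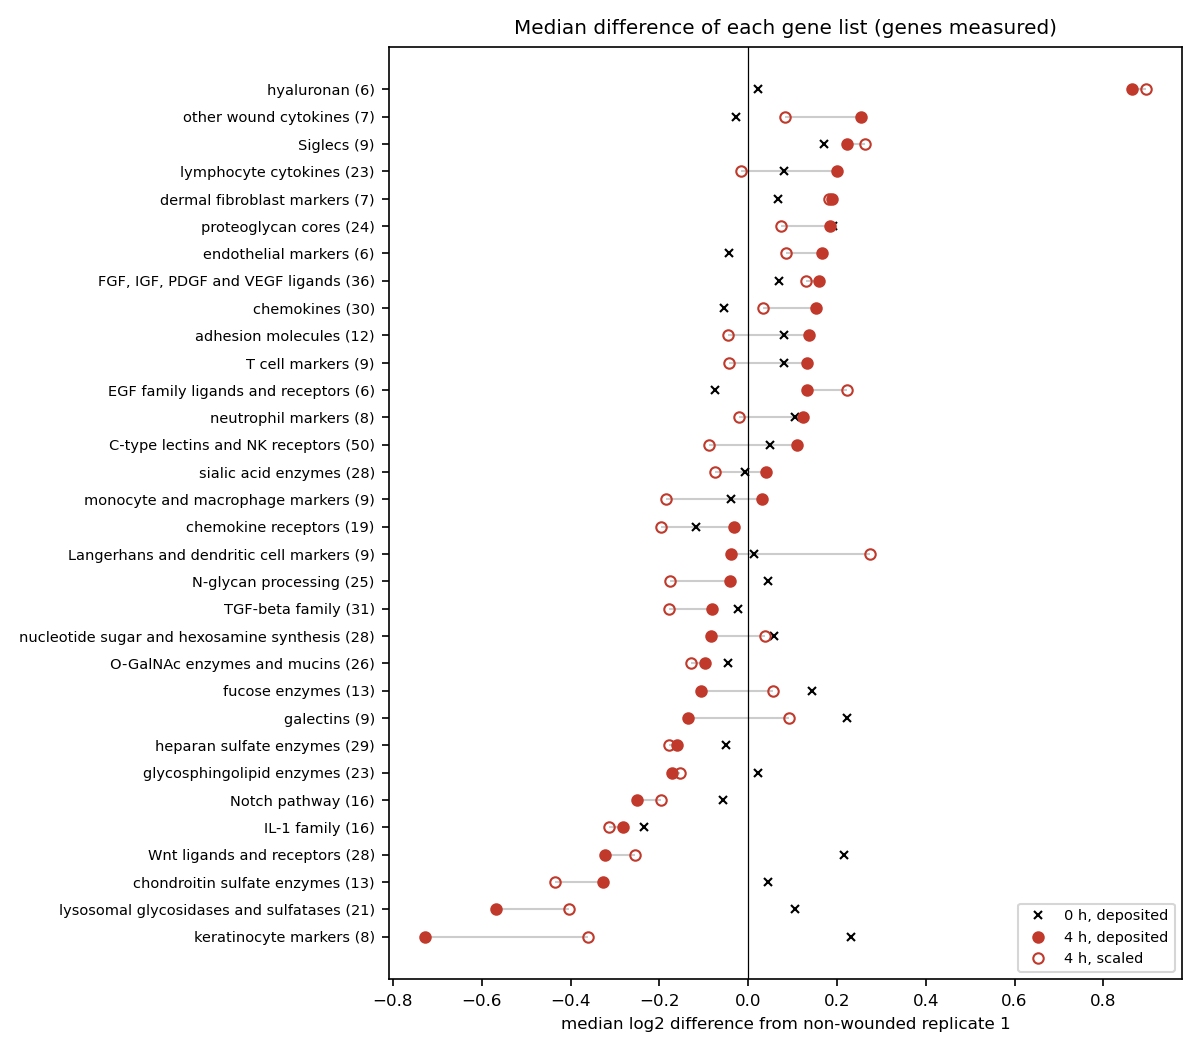
For each gene list with 5 or more measured genes (number in brackets), the median log2 difference from non-wounded replicate 1 is plotted on the x axis, with a cross for 0 h, a filled circle for 4 h as deposited and an open circle for 4 h scaled. Hyaluronan genes have the highest median at 4 h, 0.87 and 0.90, keratinocyte markers the lowest as deposited, -0.73, and several lists cross 0 between the scales.

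Over whole lists most medians at 4 h lay near that of all genes, even where single members differed widely. Chemokines, with 3 of 30 measured genes higher and 1 lower, had a median of 0.15 (scaled 0.03). The shares over all genes were 2.64% higher and 6.60% lower. Ligands of the FGF, IGF, PDGF and VEGF families had 2 of 36 higher and 2 lower, with a median of 0.16 (scaled 0.13). Wnt ligands and receptors had 2 of 28 lower and a median of -0.32 (scaled -0.25), although at 0 h their median was 0.22 (scaled 0.23). Lymphocyte cytokines had 0 of 23 past the limit and Siglecs 0 of 9.

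The difference at 4 h followed the level of the probe set. When probe sets were ordered by mean level over all samples and divided into 4 equal parts, the median difference at 4 h went from 0.19 in the lowest part to 0.12, -0.06 and -0.55 in the highest part. Of the 106 probe sets lower by 1 or more as deposited (8.51%) 81 were in the highest part, and of the 41 higher (3.29%) 8 were. After scaling, the medians were -0.06, 0.01, -0.02 and -0.25, and 55 of the 78 probe sets that were lower on both scales were in the highest part. That part holds 312 probe sets, so its share of lower ones exceeded the 6.60% set beside the gene lists. Scaling brought 10 lower and 23 higher probe sets past the limit and removed 28 lower and 5 higher ones, among them the protease Capn1 (-1.52, scaled -0.90), the GTPase Sar1a (-1.35, scaled -0.77) and the chemokine receptor Ccr3 (1.12, scaled 0.97). At 0 h the medians over the 4 parts were 0.00, -0.03, 0.02 and 0.14.

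Set directly against the 0 h sample, the 4 h sample had 22 probe sets higher by 1 or more on both scales (1.77%) and 82 lower (6.58%). This comparison shares a sample with each of the other comparisons and is not independent of them. Ccl20 was higher by 3.80 (scaled 4.20), Cxcl1 by 2.96 (scaled 3.20), Hbegf by 2.85 (scaled 3.20), Il1b by 2.16 (scaled 2.36) and Icam1 by 1.87 (scaled 2.23). Cxcl2 was higher by 0.67 (scaled 0.53), under the limit. Il20rb differed by -3.69 (scaled -3.55), Hs3st6 by -3.36 (scaled -3.07), Hes1 by -2.87 (scaled -2.51), Notch1 by -2.69 (scaled -2.21) and Klrd1 by -1.40 (scaled -1.72).

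The difference between the 2 h and non-wounded samples numbered 2 to 4 shares no sample with the difference between the 4 h sample and the reference, and their values are set side by side here. Between those groups 27 probe sets were higher by 1 or more at 2 h (2.17%) and 4 were lower (0.321%). Of the 36 probe sets higher at 4 h on both scales, 31 (86.1%) were above 0 there, beside 55.5% of all probe sets, and 12 were higher by 1 or more, which is 33.3% of the 36 and 44.4% of the 27. Among them were Ccl20 (4.91), Cxcl2 (3.80), Hbegf (3.62), Cxcl1 (3.04), Icam1 (2.95), Has3 (1.72), Il1b (1.51) and Angptl4 (1.19). Hs6st2 (0.04), B4galt2 (0.17) and Clec1a (-0.01) were near 0.

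Of the 78 probe sets lower at 4 h, 68 (87.2%) were below 0 in that 2 h comparison, beside 44.5% of all probe sets. However, only 3 were lower by 1 or more, which is 3.85% of the 78 and 75% of the 4. The median over the 78 was -1.57 at 4 h, -1.16 and -1.13 in the 30 min and 2 h samples numbered 1 against the same reference, and -0.17 at 0 h. In the samples numbered 2 to 4 it was -0.22 for the 30 min sample and -0.37 for the 2 h mean. The 78 were chosen by their difference from non-wounded replicate 1, which the 30 min and 2 h values numbered 1 share. For the 36 higher probe sets the median was 1.32 at 4 h, 0.22 at 0 h, 0.49 and 0.50 in the 30 min and 2 h samples numbered 1, and 0.16 and 0.39 in those numbered 2 to 4. The samples numbered 1 share a spread narrower than the rest, and whether that spread plays a part in these values was not tested.

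**Figure D5:**
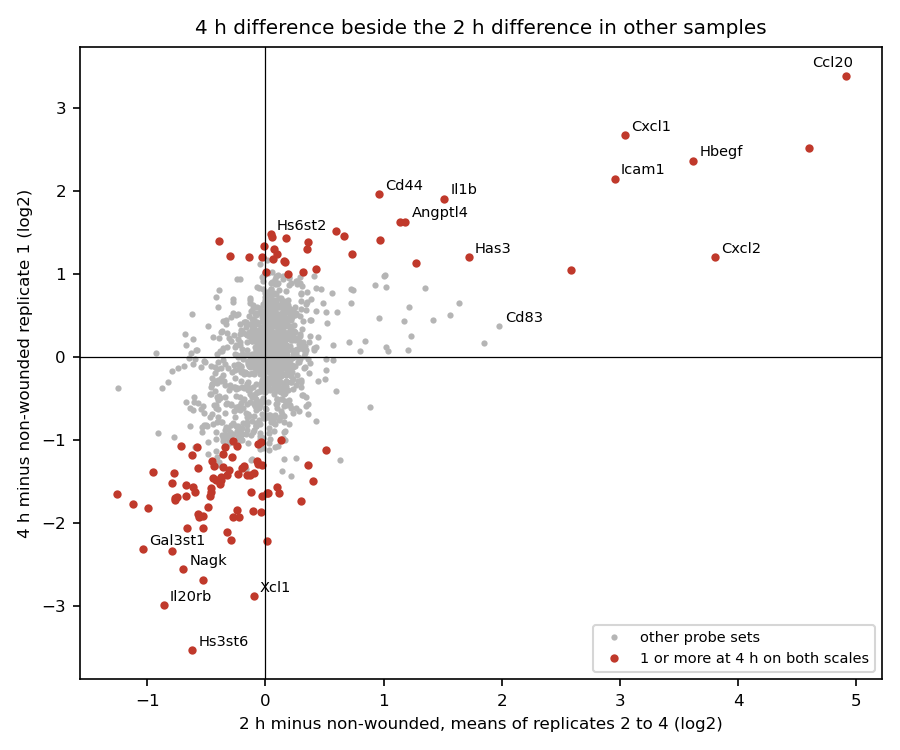
Each point is a probe set, with the 2 h minus non-wounded difference of the replicates numbered 2 to 4 on the x axis and the 4 h difference from non-wounded replicate 1 on the y axis, both as deposited log2 values; red points are those past 1 at 4 h on both scales. Ccl20, Hbegf, Cxcl1 and Icam1 are high on both axes, Cxcl2 is higher on the x axis (3.80) than on the y axis (1.21), and Hs3st6, Il20rb and Xcl1 are far lower on the y axis than on the x axis.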

How the data were processed

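RNA was prepared with Trizol and biotinylated cRNA was hybridised, per the labels' protocols. The deposited values are log2 expression values from RMA, which corrects background, normalizes and summarises probes, per the submitters' processing notes; the log2 scale was read from the values, which run from 1.76 to 13.3. The array's name and any filter are details not given in the sources used here. Precision is limited by the number of arrays, and no detection call comes with such values.

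Groups and replicate numbers came from the titles. The log2 difference from non-wounded replicate 1 was taken for all 1246 probe sets as deposited and after each column was brought to the median and SD of that sample. A size of 1 was the limit, and no test was made because each comparison has 1 sample a group. Probe set identifiers (984 RefSeq, 261 UCSC) were matched to a RefSeq gene table of GRCm38.p6: 963 matched 1 symbol, 0 several and 283 none. A gene with several probe sets was given by the one with the highest mean over all samples.

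Named genes were up to 12 a direction past 1 on both scales, up to 8 a direction lost on scaling, up to 2 of each of 27 gene lists, of which 26 had measured genes, and 26 measured of 34 wound genes. Further members of lists (Notch1, Pdgfb, Fgf20, Hyal2, Cog1, Jag2, Dll1, Jag1, Il20ra, Il1f6, B4galnt1, Glce, Xylt2, Pmm1, Hmgn2, Havcr2, Il27ra and single markers) were named after their values were seen. Uap1, Ugdh and Slc35d1 at 4 h were named in the same way. Some genes that the rule takes have no values printed. The samples, genes and lists were chosen with earlier results of these data known. Alternatives were other scalings, a filter on dim probe sets, a limit of 1.5 and other non-wounded references. Scripts were tested on simulated data. Python 3.11.15, pandas 2.3.3 and numpy 2.4.6 were used.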

Additional observations from a re-analysis of the deposited data

Results flagged for a closer look

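In groups of 4 samples, the gap between the highest or lowest sample and the nearest other was compared with the whole range, for the spread of the columns and for the 42 genes given in every sample. Of 86 such groups 15 had a sample beyond Dixon's critical value, where chance flags about 1 in 20; the groups share samples, and the genes were chosen for their difference from non-wounded replicate 1, so the 15 cannot be read against that rate. All but 1 of the 15 are samples numbered 1.

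The non-wounded sample numbered 1, the reference of the comparisons, stood apart by the SD of its column (1.81), by Igfbp3 (5.85), by Msmo1 (7.33) and by Piga (6.07), each below the other 3. The 2 h sample numbered 1 stood apart by the SD of its column (1.59). It was low for Cxcl2 (3.83), Csf1r (6.52), Nagk (5.88), Abhd17a (6.85), Vegfb (5.004), Prdm1 (4.30), Sdc2 (4.94) and Lgals7 (11.3), and high for B4galt2 (6.15). The 2 h sample numbered 2 was low for Angptl4 (5.47).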

How the results depend on the processing

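As deposited, 4 probe sets were higher and 7 lower at 0 h, 41 higher and 106 lower at 4 h, and 31 higher and 129 lower at 4 h against 0 h. With quantile normalization 10 were higher at 0 h, 84 at 4 h and 79 at 4 h against 0 h, where scaling gave 47; the lower counts stayed within 1.5 times, as did all counts under median centring and without dim probe sets. With 1 probe set a gene 27 were higher at 4 h, since fewer features are counted. A limit of 1.5 left 0 higher and 0 lower at 0 h, 10 and 44 at 4 h, and 9 and 41 at 4 h against 0 h. Against the mean of the 4 non-wounded samples, 13 were higher and 134 lower at 0 h (23 and 87 after scaling) and 78 and 258 at 4 h (60 and 142 after scaling). With the scaled mean leaving out 1 non-wounded replicate, the counts ranged from 15 to 46 higher and 64 to 131 lower at 0 h, and from 56 to 73 higher and 126 to 195 lower at 4 h. The extremes of 46, 131, 73 and 195 came without non-wounded replicate 1.

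The measure for single genes was the SD between replicates, pooled over those numbered 2 to 4 of the non-wounded and 2 h groups. It leaves out non-wounded replicate 1. Of 164 differences of single genes, 108 moved by at least this SD against the mean of the 4. Against the scaled mean 119 moved, without non-wounded replicate 1 122, with quantile normalization 84 and with scaling 48. Genes past the limit that changed sign were counted apart from these. Some named genes changed sign at 4 h. Against the mean of the 4 non-wounded samples as deposited, Bmp3 (-0.62), Cd44 (-0.44), Cmas (-0.54), Igfbp3 (-0.87), Msmo1 (-0.72), Sdc4 (-1.30) and Ugt1a6b (-0.67) were below it. On the scaled mean, Bmp3 (-0.39), Ugt1a6b (-0.10), Capn1 (0.28) and Sar1a (0.032) changed sign. With the scaled mean leaving out 1 non-wounded replicate, the differences ranged from -1.001 to -0.019 for Bmp3, -0.11 to 0.77 for Cd44, -0.23 to 0.34 for Cmas, -0.45 to 0.39 for Igfbp3, -0.41 to 0.39 for Sdc4, -0.70 to 0.15 for Ugt1a6b, 0.10 to 0.67 for Capn1 and -0.084 to 0.30 for Sar1a. For the first 6 of these the lowest value, and for the last 2 the highest, came without non-wounded replicate 1. The cause was not tested.

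No paired analysis was possible because the groups compared share 1 replicate number and the results come from no test.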

Other observations

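Growth factor ligands went in both directions at 4 h. Fgf20, a fibroblast growth factor with low values in every sample, was 2.99 in the reference and 4.15 at 4 h, a difference of 1.16 (scaled 1.08). Fgf22, a fibroblast growth factor of skin, was 6.97 in the reference and 5.44 at 4 h, a difference of -1.53 (scaled -1.40), and Pdgfb, a platelet-derived growth factor chain, was 7.14 and 5.61, a difference of -1.53 (scaled -1.37). In the samples numbered 2 to 4, the 2 h difference was 0.16 for Fgf20, -0.38 for Fgf22 and -0.79 for Pdgfb.

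The Golgi tethering subunits Cog1 and Cog6 were both lower at 4 h, with differences of -1.93 (scaled -1.78) and -2.11 (scaled -2.04), and in the 2 h samples numbered 2 to 4 they differed by -0.22 and -0.33. The N-glycan mannosyltransferase Alg9 differed by -1.67 (scaled -1.80) and the chondroitin sulfotransferase Chst12 by -1.31 (scaled -1.26).

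Of the 36 probe sets higher at 4 h on both scales 10 had no gene name here, as had 16 of the 78 lower ones.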
